A study of Homo sapiens with 6 samples.

Results

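The genes described here are 42 that code for the machinery of DNA synthesis: replicative polymerases and primase, the sliding clamp and its loader, Okazaki fragment enzymes, GINS, the origin recognition complex (ORC), the origin firing kinase, enzymes of deoxynucleotide supply, fork factors, chromatin assembly factors, geminin and the histone stem-loop binding protein. They were taken by gene symbol from the 60664 genes of the count table. The rule uses no measured value, but the list was drawn up with earlier results of these data known. The RNA came from U-2 OS, a human osteosarcoma cell line that is polyploid per the labels. One condition received a control siRNA (siControl) and the other an siRNA against SFPQ (siSFPQ), both at 30 nM, with 3 biological replicates each, and the labels name no other agent. SFPQ is an RNA- and DNA-binding protein of the nucleus. The model is a transient knock-down in 1 cancer cell line, and the time from transfection to harvest is not given in the sources used here.

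DNA replication starts where ORC marks an origin and helps to load the MCM helicase in G1. CDC7 with DBF4, and then GINS and CDC45, turn loaded helicases into moving forks in S phase. Polymerase alpha and primase lay short primers, polymerases epsilon and delta extend them on the clamp PCNA, FEN1 and LIG1 seal the lagging strand, and ribonucleotide reductase, thymidylate synthase and their partners make the deoxynucleotides. Many of these genes are known E2F targets whose mRNA is highest around the start of S phase, so their level in a bulk sample also follows the share of cycling cells.

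Counts summed to between 46142855 and 47119203 in the siControl libraries and between 43469321 and 45543610 in the siSFPQ libraries. SFPQ (ENSG00000116560) stood at 22380, 23140 and 21810 normalized counts in siControl and at 3239, 3780 and 3108 in siSFPQ. Its level was 15.0% of the control, a log2 fold change of -2.73 (SE 0.05, adjusted p = 6.33e-30, edgeR quasi-likelihood test, Benjamini-Hochberg over 29022 genes). Of the markers of mesenchymal and osteosarcoma cells, COL1A1, SPARC, FN1 and VIM were each above 1000 CPM (counts scaled to the TMM-adjusted size of the library) on average, while COL1A2 (0.961 CPM) and ALPL (3.43 CPM) were near absent. Summed over 8 such markers, the level was 7902 to 8528 CPM in siControl and 6780 to 6897 CPM in siSFPQ, with 4 lower and 1 higher. Of the leukocyte markers, each under 1 CPM, CD3E had 1 count in 1 library and 0 in the others, PTPRC (0.460 CPM) was lower at a log2 fold change of -1.61 (adjusted p = 0.00147, edgeR) and ITGAM (0.417 CPM) was higher at 2.21 (adjusted p = 7.07e-04, edgeR). Summed endothelial markers lay between 2.32 and 3.39 CPM, with 1 of 4 higher (CDH5, log2 fold change 1.39) and 1 lower (TEK, -0.86). Epithelial markers summed to 13.7 to 17.2 CPM in siControl and 34.5 to 37.4 CPM in siSFPQ, mostly from CLDN4, with 2 of the 4 tested higher. Their part in the results below was not tested.

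All 42 genes were detected and tested, at mean levels from 5.56 CPM for POLA2 to 366.1 CPM for RRM2, and 41 had a mean of at least 10 CPM. In siSFPQ, 26 of the 42 (61.9%) were lower and 6 (14.3%) were higher at an adjusted p under 0.05, and 10 had no call (edgeR quasi-likelihood test). Over all genes tested, 22.1% were lower and 22.4% higher. Among the 10216 genes with a mean of at least 10 CPM, which is the closer background for genes at these levels, 38.8% were lower and 31.4% higher. The role groups below hold few genes each, and their counts are to be read beside these shares. All siSFPQ libraries lay below all siControl libraries in 28 of the 42, against 41.1% of genes with a mean of at least 10 CPM. All lay above in 6 of the 42, against 33.7%. The conditions overlapped in the remaining 8.

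The median log2 fold change of the 42 genes was -0.19, beside 0.02 over all genes tested and -0.03 over genes with a mean of at least 10 CPM. Most changes were small, and 34 of the 42 lay between -0.5 and 0.5. The whole range ran from -1.85 for POLA1 to 0.35 for ORC5. A log2 fold change under -0.5 was reached by 8 members that were lower, against 13.4% of genes with a mean of at least 10 CPM. One under -1 was reached by 4 members, POLA1, PRIM2, GINS1 and RRM2, against 5.76%. The study asked for a log2 fold change beyond 1.5 in either direction as well as an adjusted p under 0.05, and by that stricter rule POLA1 alone was lower (under -1.5) and no member was higher, with edgeR as with DESeq2. Over all genes tested, 4.77% passed downwards and 5.54% upwards. Among the 10216 genes with a mean of at least 10 CPM, the closer background, 314 passed downwards and only 39 upwards. Summed over the 42 genes, the level was 4110 to 4259 CPM in siControl and 3295 to 3356 CPM in siSFPQ, or 79.8% of the control in normalized counts. This sum weights abundant genes most, above all RRM2, whose mean was 22810 normalized counts in siControl and 10690 in siSFPQ. In bulk RNA, fewer cells in S phase and less of these mRNAs per cell cannot be told apart.

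**Figure D1:**
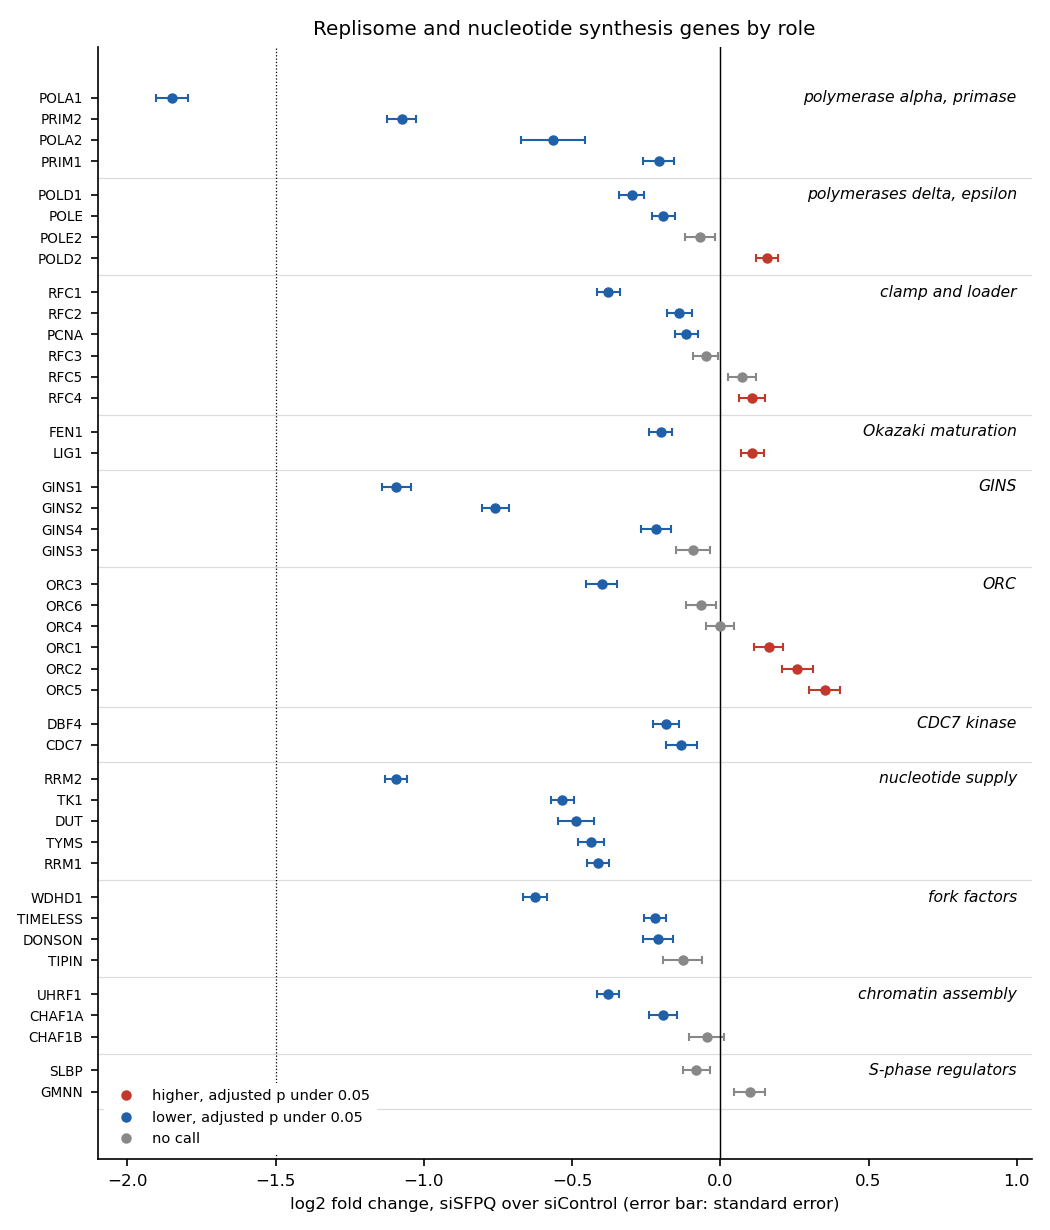
Log2 fold change of each of the 42 genes in siSFPQ over siControl (x axis), with its standard error as the bar, in blocks by role. Blue marks the 26 genes called lower, red the 6 called higher and grey the 10 with no call, and the dotted line is the threshold of -1.5, which POLA1 alone passed.

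Promoter sequence was compared first, since the rule did not use it. RefSeq promoters on GRCh38.p14, from 250 bases before the start to 50 after it, matched 40 of the 42 genes by symbol, with 54 promoters; GINS4 and DONSON had no entry. An E2F motif, spelled TTTCCCGC, TTTCGCGC, TTTGCCGC or TTTGGCGC and searched on both strands, was present in 18 of the 54 promoters (33.3%), against 3.31% of all 35116 promoters. By gene, 17 of 40 members (42.5%) held it, against 7.0% of 8105 protein-coding genes that had a promoter entry and reached a mean of 10 CPM. It was present in 11 of the 24 members that were lower (45.8%) and in 6 of the 16 that were higher or had no call (37.5%), a difference that was not tested. A CCAAT box, spelled CCAAT, was present in 21 of 40 members (52.5%) against 43.7%, and the element TTTGAA, known from cell cycle genes as the CHR, in 3 of 40 (7.5%) against 13.5%. The motifs were counted separately, and 1 promoter may hold several. A match is a description of the letters, not evidence of a factor bound there.

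The next stretches, of 60 bases each and free of annotated exons, show the motif in capitals, as the match or its reverse complement, in promoters of 4 genes that were lower and of 2 with no call. They are printed 5′ to 3′ on the strand of the gene because they hold the same kind of motif while the genes ranged from the strongest fall to no call. All come from RefSeq on GRCh38.p14, at chrX:24693755-24693814 (plus strand) for POLA1, chr16:85688955-85689014 (minus) for GINS2, chr19:4909958-4910017 (plus) for UHRF1, chr20:5126648-5126707 (minus) for PCNA, chr15:66356714-66356773 (minus) for TIPIN and chr6:24775307-24775366 (plus) for GMNN.
POLA1: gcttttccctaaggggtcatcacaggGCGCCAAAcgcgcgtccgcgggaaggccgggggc
GINS2: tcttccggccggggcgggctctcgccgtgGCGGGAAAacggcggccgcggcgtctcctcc
UHRF1: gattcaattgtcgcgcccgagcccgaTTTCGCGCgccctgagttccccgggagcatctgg
PCNA: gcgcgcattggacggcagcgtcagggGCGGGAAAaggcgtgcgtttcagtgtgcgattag
TIPIN: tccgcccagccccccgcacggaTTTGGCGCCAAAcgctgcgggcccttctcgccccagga
GMNN: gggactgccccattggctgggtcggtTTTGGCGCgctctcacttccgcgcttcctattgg
In TIPIN, 2 motifs on opposite strands share 4 bases and appear as 1 run of capitals. PCNA and GINS2 carry the same spelling, while their log2 fold changes were -0.11 and -0.76.

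Polymerase alpha and primase form the complex that starts every new strand, and all 4 of its subunits were lower, with a median log2 fold change of -0.82. POLA1 (ENSG00000101868, chromosome X, 24693873 to 24996986 on GRCh38), the catalytic subunit, stood at 2673, 2574 and 2631 normalized counts in siControl and at 710.6, 767.2 and 709.2 in siSFPQ. Every siSFPQ library was far below every siControl library, with a spread within each condition of only 49.8 and 33.1 normalized counts (SD, n = 3). Its level was 27.8% of the control, a log2 fold change of -1.85 (SE 0.05, adjusted p = 2.45e-24, edgeR). PRIM2 (ENSG00000146143, chromosome 6, 57314805 to 57646850), the large primase subunit, stood at 3866, 3622 and 3763 in siControl and at 1632, 1869 and 1840 in siSFPQ. It too was separated by condition, at 47.5% of the control (log2 fold change -1.07, SE 0.05, adjusted p = 5.15e-19, edgeR).

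The remaining subunits of this complex fell less. POLA2, the regulatory subunit of polymerase alpha, stood at 283.5, 303 and 323.9 normalized counts in siControl and at 203.2, 203.5 and 208.1 in siSFPQ, again with no overlap. Its log2 fold change was -0.57 (SE 0.11, adjusted p = 4.72e-05, edgeR). PRIM1, the catalytic primase subunit, had 1587, 1643 and 1605 against 1349, 1384 and 1453, a log2 fold change of -0.21 (adjusted p = 0.00147, edgeR). Of the annotated exon bases, 16.8% in POLA2 and 15.1% in PRIM1 also belong to other genes on the same strand, and how the counting treated such reads is not given in the sources used here. Per kilobase of the canonical mRNA, POLA1 stood at 0.423 ± 0.0154 times PRIM1 in siControl and at 0.136 ± 0.00863 times in siSFPQ (SD, n = 3). PRIM2 stood at 1.44 ± 0.0721 times PRIM1 in siControl and at 0.788 ± 0.0437 times in siSFPQ, so the order of the 2 primase subunits was the opposite in the 2 conditions. In neither pair did the libraries of the conditions overlap.

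**Figure D2:**
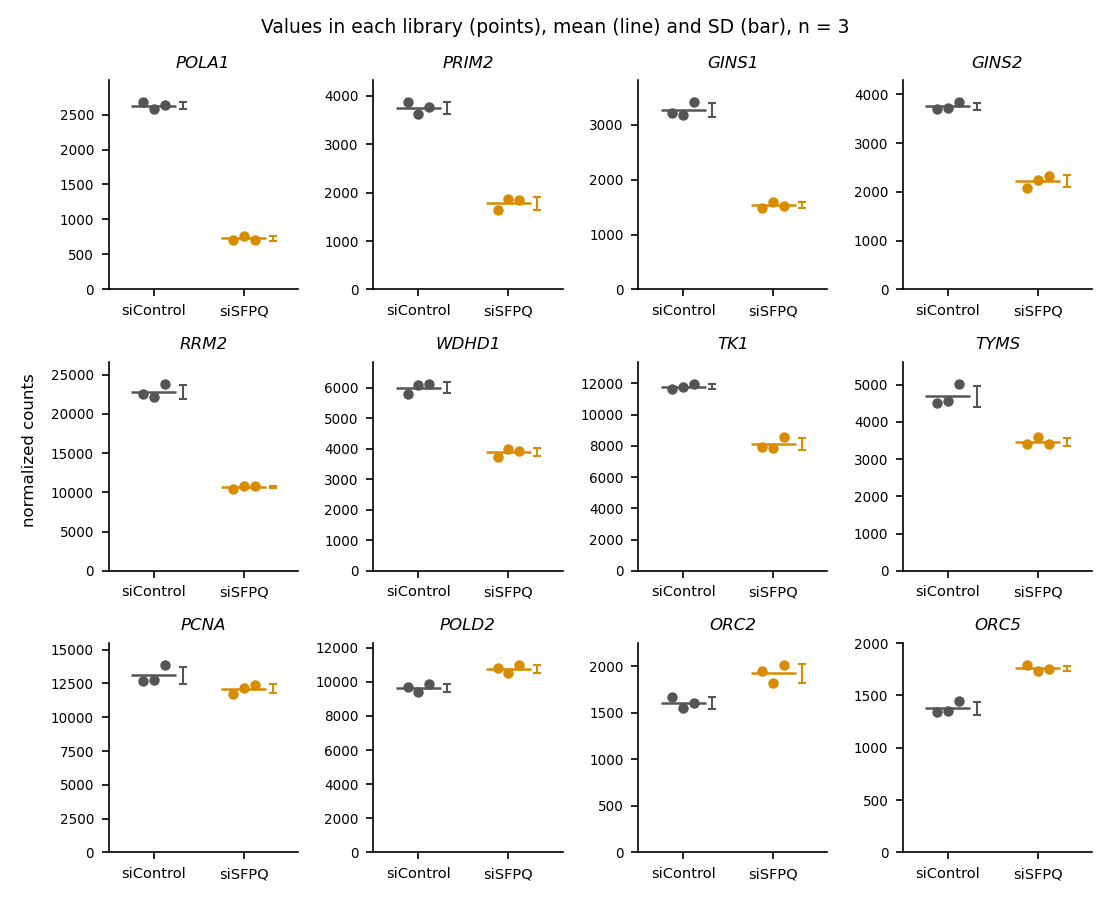
Normalized counts (y axis, from 0) of 12 of the genes in each of the 3 siControl (grey) and 3 siSFPQ (orange) libraries, with the mean as a line and the SD as a bar beside it. POLA1 stood at 709.2 to 767.2 in siSFPQ against 2574 to 2673 in siControl, while POLD2, ORC2 and ORC5 were higher in siSFPQ.

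Of 4 genes of the polymerases that copy most of the genome, 2 were lower, 1 higher and 1 had no call. POLD1, the catalytic subunit of polymerase delta, stood at 4546, 4921 and 4724 normalized counts in siControl and at 3771, 3846 and 3916 in siSFPQ (log2 fold change -0.30, SE 0.04, adjusted p = 2.05e-07, edgeR). Its partner POLD2 moved the other way, from 9687, 9396 and 9859 to 10790, 10530 and 10960 (log2 fold change 0.16, SE 0.04, adjusted p = 5.82e-04, edgeR). Neither gene overlapped between the conditions, and the POLD2 to POLD1 ratio per kilobase went from 4.36 ± 0.250 to 5.98 ± 0.132 (SD, n = 3). POLE, the catalytic subunit of polymerase epsilon, was lower by a smaller margin, with a log2 fold change of -0.19 (adjusted p = 7.89e-05, edgeR). POLE2 had no call at -0.07, with overlapping libraries. In POLD1, 8.6% of the exon bases are shared with a gene on the same strand.

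Of the 6 clamp and loader genes, 3 were lower, 1 was higher and 2 had no call, with a median log2 fold change of -0.08. PCNA, the ring that tethers polymerases to DNA, stood at 12700, 12770 and 13830 normalized counts in siControl and at 11750, 12170 and 12380 in siSFPQ. The libraries did not overlap, but the log2 fold change was only -0.11 (adjusted p = 0.0149, edgeR), and 3 of the 14 alternatives lost the call. RFC1, the largest loader subunit, fell most in this group, from 9233, 9077 and 9160 to 6939, 7344 and 6864 (log2 fold change -0.38, SE 0.04, adjusted p = 2.87e-10, edgeR).

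The small loader subunits had smaller log2 fold changes than RFC1. RFC4 stood at 2954, 2777 and 3052 in siControl and at 3089, 3188 and 3175 in siSFPQ, all siSFPQ libraries being above, with a log2 fold change of 0.11 (adjusted p = 0.048, edgeR) that 6 of 14 alternatives did not call. RFC2 was lower at -0.14 (adjusted p = 0.00807, edgeR), a call lost in 2 of 14 alternatives, and RFC3 (-0.05) and RFC5 (0.07) had no call. RFC3 turned to 0.01 when library size alone set the scale. Per kilobase, RFC1 stood at 0.878 ± 0.0375 times RFC4 in siControl and at 0.627 ± 0.0200 times in siSFPQ (SD, n = 3), with no overlap.

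The enzymes that finish Okazaki fragments changed in opposite directions. FEN1, the flap endonuclease, stood at 9105, 9134 and 9807 normalized counts in siControl and at 8094, 8085 and 8210 in siSFPQ (log2 fold change -0.20, SE 0.04, adjusted p = 4.06e-05, edgeR). LIG1, the ligase that seals the nick, stood at 5646, 5767 and 5882 against 6177, 6361 and 6095 (log2 fold change 0.11, SE 0.04, adjusted p = 0.0208, edgeR), and 2 of 14 alternatives lost this call. Neither gene overlapped between the conditions, and the ratio of LIG1 to FEN1 per kilobase went from 0.398 ± 0.0103 to 0.493 ± 0.0143 (SD, n = 3).

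GINS is a complex of 4 subunits, 1 copy of each, and joins CDC45 and MCM in the active helicase. Its genes split into a pair with clear falls and a pair with small differences. GINS1 (ENSG00000101003, chromosome 20, 25391008 to 25452700) stood at 3216, 3173 and 3408 normalized counts in siControl and at 1479, 1590 and 1524 in siSFPQ. No library overlapped, and the level was 46.9% of the control (log2 fold change -1.09, SE 0.05, adjusted p = 1.53e-19, edgeR). GINS2 went from 3711, 3727 and 3837 to 2089, 2245 and 2326, or 59.1% of the control (log2 fold change -0.76, SE 0.04, adjusted p = 6.22e-16, edgeR). GINS4 was lower by a small margin (log2 fold change -0.22, adjusted p = 5.83e-04, edgeR). GINS3 had no call at -0.09, although all its siSFPQ libraries lay below those of siControl.

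By canonical mRNA length, the levels of the 4 GINS subunits lay closer together in siSFPQ than in siControl. Per kilobase of canonical mRNA, GINS1, GINS2, GINS3 and GINS4 stood at 21.6 ± 0.826, 31.3 ± 0.571, 12.03 ± 0.177 and 10.6 ± 0.0223 CPM in siControl (SD, n = 3). In siSFPQ the same genes stood at 10.1 ± 0.369, 18.5 ± 1.00, 11.3 ± 0.402 and 9.08 ± 0.336 CPM per kilobase. GINS2 was the highest in both conditions. GINS1 stood at 2.04 ± 0.0756 times GINS4 in siControl and at 1.11 ± 0.0337 times in siSFPQ. The order of the genes depends on the length used. Per kilobase of all annotated exons, GINS1 stood at 8.903 CPM in siControl and 4.174 in siSFPQ, and GINS4 at 7.306 and 6.285. In GINS4, 23.4% of the exon bases lie opposite other genes, whose reads may be among its counts if strand was not used in counting.

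ORC, the complex that marks origins before S phase, was the role group with most higher calls: 3 of its 6 genes were higher, 1 was lower and 2 had no call, with a median of 0.08. ORC5 stood at 1340, 1347 and 1450 normalized counts in siControl and at 1787, 1737 and 1757 in siSFPQ, all siSFPQ libraries being above. This was the largest rise among the 42 genes, 127.7% of the control (log2 fold change 0.35, SE 0.05, adjusted p = 9.63e-07, edgeR). ORC3 moved the other way, from 1721, 1748 and 1790 to 1337, 1331 and 1317, again with no overlap (log2 fold change -0.40, SE 0.05, adjusted p = 5.95e-08, edgeR).

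The other ORC subunits moved less. ORC2 rose by 0.26 on the log2 scale (adjusted p = 1.06e-04) and ORC1, the subunit whose protein is degraded after G1, by 0.16 (adjusted p = 0.00638, edgeR for both). ORC6 had no call at -0.07. ORC4 was at 99.95% of the control, and its log2 fold change of -0.0007 took the opposite sign in 8 of 14 alternatives, none of which called it. Per kilobase of canonical mRNA, ORC5 and ORC3 were level in siControl, at a ratio of 1.02 ± 0.0271, and stood at 1.72 ± 0.0228 in siSFPQ (SD, n = 3). Per kilobase of all annotated exons, they stood at 8.092 and 9.356 CPM in siControl.

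**Figure D3:**
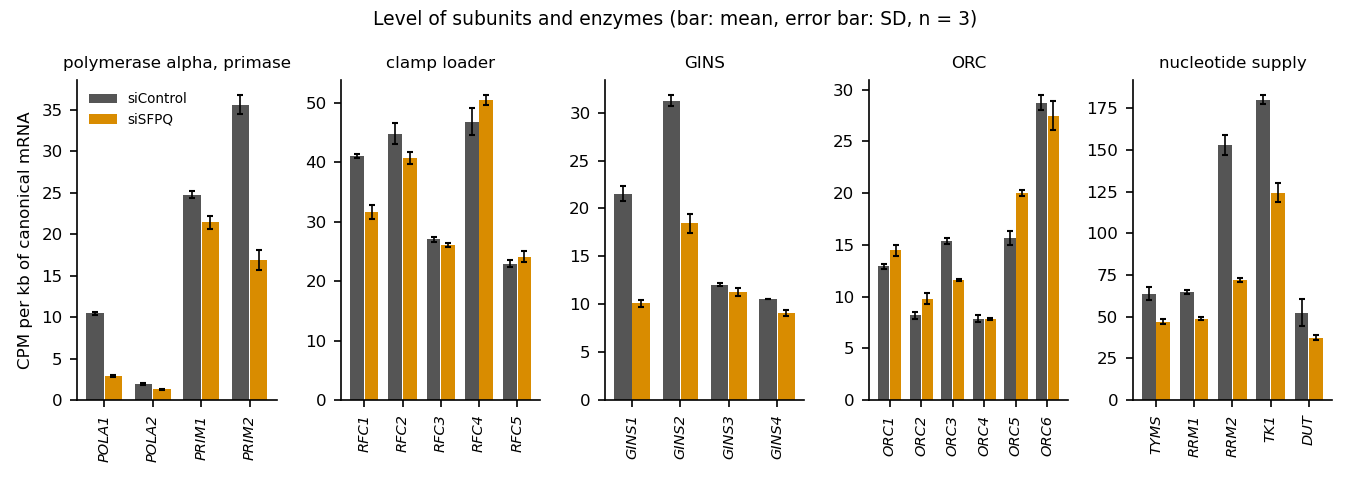
Level per kilobase of canonical mRNA, in CPM per kb (y axis, from 0 and on a different scale in each panel), of the subunits or enzymes of 5 role groups in siControl (grey) and siSFPQ (orange), as mean and SD over 3 libraries. GINS1 and GINS2 came closer to GINS3 and GINS4, POLA1 and PRIM2 fell more than PRIM1, and ORC5 rose while ORC3 fell.

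The kinase that fires origins showed small falls. DBF4, the activating subunit, stood at 3330, 3633 and 3638 normalized counts in siControl and at 3104, 3133 and 3100 in siSFPQ (log2 fold change -0.18, SE 0.04, adjusted p = 6.68e-04, edgeR), without overlap. CDC7, the catalytic subunit, stood at 2295, 2442 and 2619 against 2138, 2410 and 2162. Its siSFPQ replicate 2 lay above siControl replicate 1, and the log2 fold change of -0.13 (adjusted p = 0.039, edgeR) lost its call in 8 of 14 alternatives.

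All 5 genes of deoxynucleotide supply were lower, with a median log2 fold change of -0.49 and no overlap between conditions in any of them. RRM2 (ENSG00000171848, chromosome 2, 10120698 to 10211725), the S-phase subunit of ribonucleotide reductase, was the most abundant of the 42 genes by CPM. It stood at 22470, 22160 and 23800 normalized counts in siControl and at 10490, 10800 and 10770 in siSFPQ, or 46.9% of the control (log2 fold change -1.09, SE 0.04, adjusted p = 1.39e-22, edgeR). RRM1, the large subunit of the same enzyme and the smallest fall in this group, went from 9219, 9507 and 9237 to 6920, 6962 and 7139 (log2 fold change -0.41, SE 0.04, adjusted p = 2.12e-11, edgeR).

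The thymidine and dUTP enzymes lay between these. TK1, thymidine kinase, went from 11630, 11780 and 11970 to 7947, 7900 and 8594 (log2 fold change -0.53, adjusted p = 1.1e-13, edgeR). DUT, which breaks down dUTP, went from 4570, 6030 and 4781 to 3491, 3791 and 3685 (log2 fold change -0.49, adjusted p = 3.29e-08, edgeR), with siControl replicate 2 well above the other control libraries and 14.5% of the exon bases opposite an antisense gene. TYMS, thymidylate synthase, went from 4509, 4554 and 5021 to 3416, 3587 and 3396 (log2 fold change -0.44, adjusted p = 3.35e-10, edgeR). Of its exon bases, 47.9% lie opposite ENOSF1 or TYMSOS. The library kit was stranded, but whether the counting used strand is not given in the sources used here, so reads of these genes may be among its counts.

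RRM2B codes for an alternative small subunit of ribonucleotide reductase, a known p53 target that works outside S phase, and was singled out after its values were seen. It went from 12440, 12560 and 13380 normalized counts in siControl to 16770, 16770 and 16950 in siSFPQ (log2 fold change 0.40, SE 0.04, adjusted p = 4.99e-11, edgeR). Per kilobase of canonical mRNA, RRM2 stood at 2.61 ± 0.0312 times RRM2B in siControl and at 0.930 ± 0.0136 times in siSFPQ (SD, n = 3), so the higher of the 2 subunits differed between the conditions in every library. RRM2 to RRM1 went from 2.36 ± 0.119 to 1.47 ± 0.0220.

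Of the fork factors, 3 of 4 were lower and 1 had no call. WDHD1, which links polymerase alpha to the helicase, stood at 5790, 6080 and 6120 normalized counts in siControl and at 3729, 4004 and 3937 in siSFPQ. It was separated by condition, at 64.9% of the control (log2 fold change -0.62, SE 0.04, adjusted p = 8.33e-15, edgeR). TIMELESS, a fork protection factor, was at -0.22 (adjusted p = 7.78e-06, edgeR). DONSON, which helps to place GINS on the helicase, was at -0.21 (adjusted p = 9.17e-04, edgeR). TIPIN, the partner of TIMELESS, had no call at -0.13 and overlapping libraries, and 21.1% of its exon bases are shared with a pseudogene on the same strand.

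Of the chromatin assembly genes, 2 of 3 were lower. UHRF1, which reads hemimethylated DNA and helps to copy DNA methylation, went from 5739, 5990 and 5852 normalized counts to 4525, 4481 and 4513 (log2 fold change -0.38, SE 0.04, adjusted p = 3.9e-10, edgeR), with no overlap. CHAF1A, the large subunit of the CAF-1 histone chaperone, was at -0.19 (adjusted p = 0.00114, edgeR). CHAF1B, its partner, had no call at -0.05 and turned to 0.02 when library size alone set the scale. Of the S-phase regulators, GMNN, the licensing inhibitor geminin, stood at 1647, 1722 and 1887 against 1878, 1855 and 1895, which overlap, and had no call at 0.10 (adjusted p = 0.132, edgeR). SLBP, which binds the stem-loop of histone mRNAs, stood at 2621, 2742 and 2600 against 2545, 2441 and 2542. Its siSFPQ libraries lay just below those of siControl, with no call at -0.08 (adjusted p = 0.146, edgeR).

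Gene span was compared because 2 of the strongest falls, POLA1 and PRIM2, were in the longest genes of the set, with canonical transcripts spanning 303.07 and 329.22 kb. Of the 610 protein-coding genes over 200 kb in canonical span that reached a mean of 10 CPM, 83.8% were lower, with a median log2 fold change of -0.85. Both members lay below that median. No member had a canonical span of 100 to 200 kb. Across the 42 genes, the correlation of the span of the whole gene, from its annotated start to its end, with log2 fold change was weak in rank (Spearman's rho = -0.185) and stronger on the log10 scale of span (Pearson's r = -0.41). Without POLA1 and PRIM2, rho was -0.059 and r was -0.118 over 40 genes. With the canonical span of the same 40 genes, rho was 0.024 and r was 0.048. Over the 9808 protein-coding genes with a mean of at least 10 CPM, rho was -0.294 and r was -0.36. These correlations are across genes measured in the same libraries, which are not independent replicates.

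The members were also set beside genes of their own class of canonical span. Under 25 kb, 12 of 21 members (57.1%) were lower, against 27.8% of 4254 genes. From 25 to 50 kb it was 7 of 10 (70.0%) against 32.7% of 2123 genes, and from 50 to 100 kb 5 of 9 (55.6%) against 43.6% of 1701 genes. RRM2, GINS2 and GINS1 had canonical spans of 8.68, 12.8 and 40.9 kb, while the whole annotated genes span 91.03, 13.88 and 61.69 kb. The medians of all genes in their classes of canonical span were 0.04 and 0.01. These shares are a description, and the difference from the background was not tested.

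**Figure D4:**
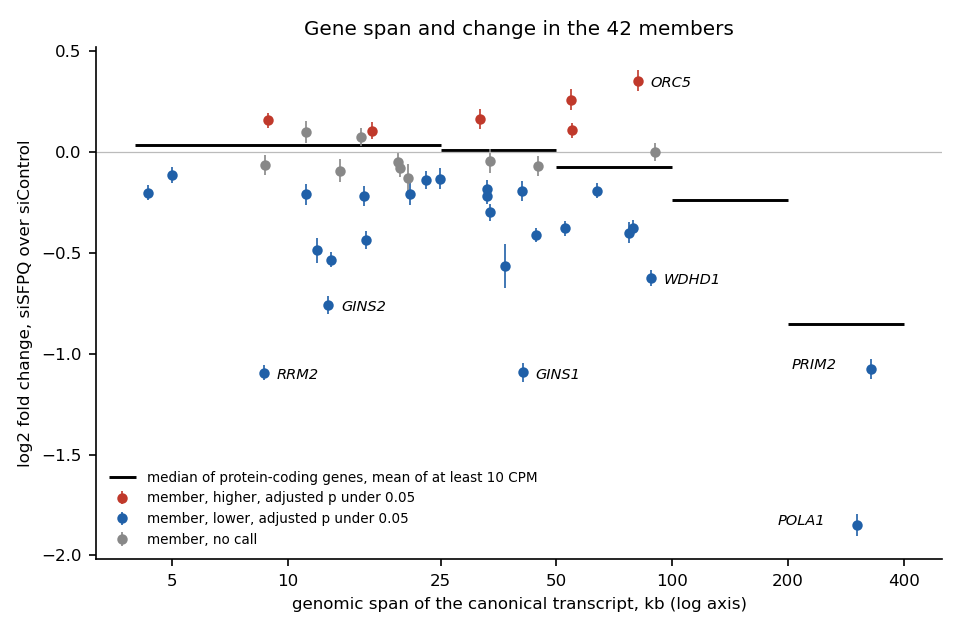
Log2 fold change in siSFPQ over siControl (y axis, SE as bar) against the genomic span of the canonical transcript in kb (x axis, log scale) for the 42 genes, coloured by call. Black lines give the median of all protein-coding genes with a mean of at least 10 CPM in 5 span classes, the lowest of which starts at 0 kb and the highest of which has no upper limit. POLA1 and PRIM2 lie over 200 kb, where the median was -0.85, while RRM2, GINS1 and GINS2 lie well below the lines of their classes.

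The other genes of the pathway are given by lists. Their shares stand beside 38.8% lower and 31.4% higher among all genes with a mean of at least 10 CPM. Among 9 genes of the MCM helicase and its loading, 4 were lower (44.4%), 1 was higher (11.1%) and 4 had no call. The median log2 fold change was -0.09. MCM3, a helicase subunit, fell most, from 12950, 13670 and 13750 to 9785, 9943 and 9883 normalized counts (log2 fold change -0.45, adjusted p = 2.69e-12, edgeR), and CDT1, the loader that geminin inhibits, rose by 0.18 (adjusted p = 7.9e-04, edgeR). Among 24 other replisome genes, 10 were lower (41.7%) and 2 higher (8.33%), with a median of -0.11. The share of lower genes in both lists was near that of all genes at these levels. ATAD5, which unloads PCNA, fell most (log2 fold change -0.51, adjusted p = 5.31e-10, edgeR), and POLE3, a small polymerase epsilon subunit, rose most (0.18, adjusted p = 7.16e-04, edgeR). RNASEH2A and CHTF8 from this list were at very low levels, and 53.3% and 84.6% of their exon bases are shared with another gene on the same strand.

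Other nucleotide synthesis genes, which make and interconvert purines and pyrimidines, had more higher than lower calls. Of 27 genes, 13 were higher (48.1%) and 7 lower (25.9%), against 31.4% and 38.8% of genes with a mean of at least 10 CPM. The median log2 fold change was 0.09. CTPS1, which makes CTP from UTP, went from 6446, 6185 and 6347 normalized counts to 10170, 9631 and 10190 (log2 fold change 0.66, adjusted p = 2.9e-16, edgeR). CMPK1, which phosphorylates CMP and UMP, went from 8978, 9140 and 9418 to 4663, 4967 and 4705 (log2 fold change -0.94, adjusted p = 3.46e-20, edgeR). In both genes the conditions did not overlap.

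Other chromatin assembly genes were mixed, with 5 of 11 lower (45.5%), 2 higher (18.2%) and a median of -0.11. Of genes with a mean of at least 10 CPM, 38.8% were lower and 31.4% higher. TONSL and MMS22L, partners in 1 complex that acts at damaged forks, were the extremes of this list: TONSL rose by 0.53 on the log2 scale (adjusted p = 1.82e-13) and MMS22L was at -0.54 (adjusted p = 1.12e-10, edgeR for both). G2/M genes, which mark dividing cells and are no part of the replisome, were lower in 12 of 17 (70.6%), with a median of -0.22. None was higher at an adjusted p under 0.05 in the main edgeR fit or by DESeq2, but up to 2 were in other alternatives. In the main fit, 1 was higher at an unadjusted p under 0.05 (edgeR). CENPE, a kinetochore motor, fell most of those called, with a log2 fold change of -0.47 (adjusted p = 1.29e-10, edgeR). Summed over the list, G2/M genes stood at 3632 to 3850 CPM in siControl and at 3142 to 3227 CPM in siSFPQ. The part of the cell cycle in the falls of the replication genes was not tested.

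**Figure D5:**
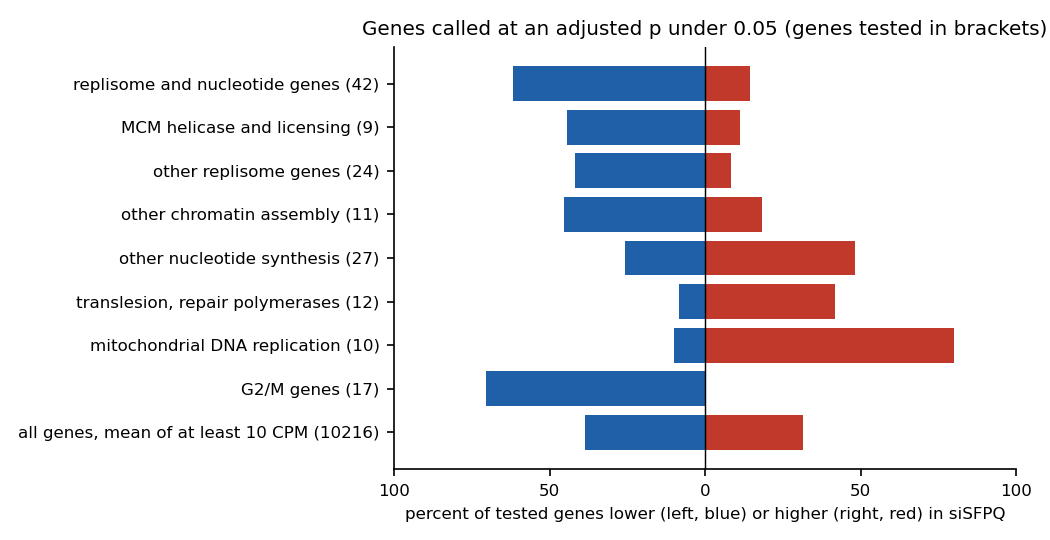
Percent of the tested genes of each list that were lower (left of 0, blue) or higher (right of 0, red) in siSFPQ at an adjusted p under 0.05, with the number tested in brackets. The 42 replisome and nucleotide genes had 61.9% lower and 14.3% higher, beside 38.8% and 31.4% of all genes with a mean of at least 10 CPM in the lowest bar.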

How the data were processed

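RNA sequencing of polyA RNA from U-2 OS cells gave 6 libraries, 3 per condition, grouped by the sample labels. The libraries were made with an Illumina TruSeq stranded mRNA kit. The authors used FastQC for read quality and STAR 2.7.9a for alignment to Ensembl GRCh38, and deposited raw counts of reads per gene (from the paper's methods and the submitters' processing notes). Whether the counting used strand and the treatment of reads shared by overlapping genes are not given in the sources used here. Counts of genes that share exons are therefore uncertain.

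The 42 genes, their role groups and the other gene lists were chosen with earlier results of these data known. Genes with a total of at least 10 counts entered the quasi-likelihood F test of edgeR 4.0.16 (R 4.3.3), with TMM normalization and the condition as the single term, and p-values were adjusted by Benjamini-Hochberg over 29022 genes. Higher or lower means an adjusted p under 0.05. The standard error was computed from the fold change and the F statistic. For normalized counts, each count was divided by its library's effective size relative to the geometric mean, and values are given to 4 digits. At these depths, 3 counts correspond to 0.0637 to 0.069 CPM. Levels per kilobase use the canonical mRNA of GENCODE release 44, which held 99.67% of the gene identifiers, unless all annotated exons are named. Ratios between genes depend on this choice of length. DESeq2 1.42.0 was an alternative test.

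Values per library are given for the largest rise and the largest fall of each role group and for every member with a log2 fold change over 1 or under -1. Of each other list, the largest rise and fall among called genes are named. On simulated counts of this comparison with 28170 genes tested, edgeR called 94 of 100 genes changed by 1 on the log2 scale. It called 77 of 100 changed by 0.5, and 5 unchanged genes. No further genes were changed in the simulation, and all changed genes had a mean of at least 1 CPM. The data held a far larger share of called genes, so these rates may not carry over. No library was a repeat of another, since the chi-square per degree of freedom between replicates was 4.07 to 5.96. All 6 columns of the table carry a sample's name, and 0 were left unused. Reads of annotated pseudogenes named by a member's symbol, P and a number came to at most 1.34% of that member's own counts, in DBF4. Pseudogenes named otherwise were not counted. One of the leukocyte markers is not reported here.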

Additional observations from a re-analysis of the deposited data

How the results depend on the processing

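The 32 members called higher or lower kept their direction in all 14 alternatives each, and 27 of them kept the call in every one (23 lower, 4 higher). PCNA, RFC2, RFC4, LIG1 and CDC7 lost it in some. Under each filter, scaling, test and left-out library, between 23 and 27 members were lower and between 4 and 8 higher, POLA1 alone passed both thresholds downwards, and SFPQ stayed lower. With a log2 threshold of 0.5 added, 8 were lower and 0 higher; with 1, it was 4 and 0.

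The median log2 fold change of the members was -0.17 among genes with a mean of at least 1 CPM, -0.13 with library size alone, which moved the median of all genes from 0.02 to 0.08, and -0.21 to -0.17 with each library left out. With library size alone, RFC3 (0.0138) and CHAF1B (0.0179) took the opposite sign. So did ORC4, at 0.0042 with filterByExpr, 0.0237 with a mean of at least 1 CPM, 0.0628 with library size alone, and 0.0147 with protein-coding genes only. With each library left out it was between -0.0354 and 0.018, on the opposite side in 4 of 6 fits. None of these 3 genes was called.

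The rank correlation of gene span and log2 fold change was -0.235 for summed exon length and -0.221 to -0.185 with each library left out. Added after seeing the data, it was -0.107 for the canonical transcript and -0.059 without POLA1 and PRIM2. With both changes made, it was 0.024, on the opposite side of 0. The E2F motif count was 17 genes with either set of spellings, but the genes were not all the same. With GGCGGGAA or TTTGGCGC as the spellings, GINS3, ORC3, POLA2, RFC3 and TYMS dropped out. CHAF1A, PRIM1, RFC2, RFC4 and RRM1 came in. The motif was then present in 12 of the 24 lower members and in 5 of the 16 that were higher or had no call. With the spellings used above, it was 11 of 24 and 6 of 16, and neither difference was tested. Same-numbered libraries of the conditions showed little correlation in their deviations (r between -0.029 and 0.066). Whether they were prepared in pairs is not given in the sources used here. With the replicate block, 26 members were lower, 6 higher and the median was -0.19.

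Of the other lists, the single lower mitochondrial gene was lost in 7 alternatives, up to 3 translesion or repair polymerases were lower, and up to 2 G2/M genes were higher.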

Other observations

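Replication of the mitochondrial genome uses its own enzymes, and most genes of this list were higher in siSFPQ. Of 10 genes, 8 were higher (80%), 1 was lower (10%) and 1 had no call, with a median log2 fold change of 0.22. Of genes with a mean of at least 10 CPM, 31.4% were higher and 38.8% lower. POLRMT, the mitochondrial RNA polymerase that also makes replication primers, rose most, from 1933, 1877 and 1962 normalized counts in siControl to 3229, 3108 and 3289 in siSFPQ. The conditions did not overlap, and its log2 fold change was 0.74 (SE 0.04, adjusted p = 1.36e-15, edgeR quasi-likelihood test, Benjamini-Hochberg adjustment). LIG3, the ligase shared by mitochondria and nuclear repair, was the single lower gene, at -0.12 (adjusted p = 0.0358, edgeR), a call lost in 7 of 14 alternatives. Summed over the list, the level was 566.7 to 592.7 CPM in siControl and 679.1 to 695.2 CPM in siSFPQ.

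Translesion and repair polymerases, which copy damaged DNA or fill gaps, were higher in 5 of 12 genes (41.7%) and lower in 1 (8.33%). These shares stand against 31.4% and 38.8% of genes with a mean of at least 10 CPM. The median of the list was 0.06. POLM, an end-joining polymerase, rose most, from 973.9, 877 and 969.6 normalized counts to 1343, 1160 and 1198, with no overlap (log2 fold change 0.39, SE 0.07, adjusted p = 6.46e-06, edgeR). POLK, a translesion polymerase, fell, from 1242, 1447 and 1249 to 1057, 1182 and 1005 (log2 fold change -0.28, adjusted p = 7.57e-04, edgeR), again with no overlap.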
